A study of Mus musculus with 24 samples.

Results

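The serotonin receptor transcripts of the mouse visual cortex were examined across light exposure and psilocybin treatment. The 10 genes were chosen by symbol as serotonin receptors expressed in cortex (Htr1a, Htr1b, Htr1f, Htr2a, Htr2c, Htr3a, Htr4, Htr5a, Htr6 and Htr7), of 55414 genes in the deposited table. Each of the 10 had a highest count of at least 30 reads in some library and was tested. C57BL/6J male mice aged 8 weeks, housed in a reverse light cycle, were taken in their dark phase. The dark group was kept in the dark, and the light group was placed in light for 2.5 h. The psilocybin-dark and psilocybin-light groups received 5 mg/kg psilocybin and were then kept in the dark or placed in light for the same time. The labels give PBS as the treatment of the groups without the drug. Each group held 6 mice, with 1 polyA RNA-seq library of the visual cortex per mouse (24 libraries). These group names follow the study's column headings. In the labels of all 24 libraries the drug is as given here but light and dark are exchanged, so the 4 sets of 6 libraries are the same under both namings and only the light exposure they stand for changes. Arc and Npas4, activity-regulated genes, were higher in light than in dark mice as named here, at 4915 to 13567 against 617.3 to 1454 normalized counts of Arc (log2 fold change 2.83, adjusted p = 1.84e-06 by edgeR) and 351.2 to 697.1 against 36.68 to 144.7 of Npas4 (2.37, adjusted p = 6.12e-06). Under the labels both differences have the opposite sign. Libraries are named below by mouse number, with 1 to 6 in the dark group, 7 to 12 psilocybin-dark, 13 to 18 light and 19 to 24 psilocybin-light.

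Serotonin reaches the cortex along fibers from the raphe nuclei and acts through a large receptor family. Htr1a, Htr1b, Htr1f and Htr5a encode receptors that couple to Gi/o proteins and lower cyclic AMP, Htr2a and Htr2c encode receptors that couple to Gq and activate phospholipase C, and Htr4, Htr6 and Htr7 encode receptors that couple to Gs and raise cyclic AMP. Htr3a encodes a subunit of the ligand-gated cation channel of the family. Psilocin, the active product of psilocybin, is an agonist of several of these receptors, and its action on the Htr2a product is best known for the psychedelic effect.

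The receptors are encoded on separate chromosomes except for Htr1b and Htr3a. On GRCm39, with GENCODE vM39, Htr2a lies at chr14:74877344-74946934 on the plus strand and Htr2c at chrX:145745509-145980286 on the plus strand. Htr1a is a single-exon gene at chr13:105580147-105584630 on the plus strand. Htr1f lies at chr16:64742111-64926217 and Htr7 at chr19:35935818-36035177, both on the minus strand. The sequence upstream of the gene start is shown for 3 receptors, Htr2c and Htr1f because they had the largest lower and higher values against dark, and Htr1a because it had the highest level per length. The bases come from the RefSeq promoter table (GRCm38.p6) and were placed on GRCm39 by exact match. They run 5′ to 3′ on the strand of the gene and end at the base before the annotated gene start. Capitals mark a match to TGANTCA, a loose pattern for the AP-1 site of Fos and Jun dimers that allows any base at its centre. The match at Htr2c has an A there, and binding to it was not tested.
Htr2c (chrX:145745259-145745508, plus strand): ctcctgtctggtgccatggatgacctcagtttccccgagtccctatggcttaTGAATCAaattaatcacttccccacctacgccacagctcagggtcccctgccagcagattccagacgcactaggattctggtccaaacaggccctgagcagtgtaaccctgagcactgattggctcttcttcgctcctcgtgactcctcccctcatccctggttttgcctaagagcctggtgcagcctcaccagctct
Htr1f (chr16:64926218-64926397, minus strand): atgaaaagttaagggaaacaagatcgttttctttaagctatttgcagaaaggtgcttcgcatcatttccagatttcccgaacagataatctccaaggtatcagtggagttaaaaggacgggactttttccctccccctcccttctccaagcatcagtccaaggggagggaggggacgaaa
Htr1a (chr13:105579951-105580146, plus strand): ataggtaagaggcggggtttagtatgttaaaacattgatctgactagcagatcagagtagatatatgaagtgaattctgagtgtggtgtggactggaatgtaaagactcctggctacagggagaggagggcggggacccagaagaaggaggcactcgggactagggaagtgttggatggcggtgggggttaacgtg

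The table held 9 promoters of 8 receptors. In the 250 bases before the RefSeq start, read on both strands, the loose AP-1 pattern TGANTCA was found at Htr2c and at 6.75% of the 32851 promoters in the table. At Htr2c it lay at bases 198 to 192 before the gene start. The Htr7 promoter held the EGR site GCGNGGGCG, found at 4.7% of all promoters, and the CRE core TGACG, found at 17.8%, which also lies inside the full CRE. This Htr7 window (chr19:36034761-36035010) precedes the RefSeq start but lies inside the GENCODE gene, not upstream of it. The same holds for the Htr2a window and the Htr6 window at chr4:138802101-138802350. The full CRE TGACGTCA, the MEF2 site, the E-box CACGTG and the TATA box TATAAA, held by 1.55%, 3.2%, 6.02% and 12.4% of all promoters, were found at none of the 9. These are matches of letters in 1 window and were not tested against the expression values.

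The libraries held between 13552516 and 17906994 reads assigned to genes. Markers of cortical excitatory neurons were present in every library (8 of 8 genes passed the filter). Their summed level was 815 to 2190 CPM (counts scaled to library size) in dark mice and 1900 to 2600 CPM in light mice. In each of the 3 other groups, 5 of the 8 were higher than dark. Of all genes tested, 15.4%, 11.9% and 17.4% were higher than dark in light, psilocybin-dark and psilocybin-light mice. Markers of other regions were not evenly spread. The hippocampus list (12 genes, 10 passing the filter) summed to 235 to 545 CPM in dark mice, 103 to 139 in light mice, 117 to 158 in psilocybin-dark mice and 89.3 to 132 in psilocybin-light mice, so every dark mouse was above every other mouse. Of all genes tested, 16.4%, 12.8% and 21.0% were lower in light, psilocybin-dark and psilocybin-light mice than in dark mice. Of the 10 tested in the hippocampus list, 6, 5 and 8 were lower and none was higher. Among its defining genes, Fibcd1 spanned 20 to 298 CPM in dark mice and at most 19 elsewhere, Spink8 reached 6.27 CPM in dark mice and 1.35 elsewhere, and Iyd was at most 0.473 CPM throughout. Dark mouse 6 was the lowest of its group for Fibcd1 and, at 0.228 CPM, for Spink8, which put it within the Spink8 range of the other groups. Prox1 was at 48.2 and 40.5 CPM in dark mice 1 and 6. It was at 12.2 to 16.7 CPM in dark mice 2 to 5 and 11.3 to 21.2 elsewhere. Cerebellum markers (5 genes) reached 3470 CPM in dark mouse 6, 1620 in dark mouse 1, 1570 in psilocybin-dark mouse 12 and 963 in light mouse 18, against a median of 67.4, 18 and 13.6 CPM in these 3 groups. Choroid plexus markers (8 genes, 5 passing the filter) peaked at 143 CPM in light mouse 14, and thalamus markers (5 genes) at 189 and 191 CPM in dark mouse 1 and psilocybin-light mouse 23. Reads from bulk tissue do not separate fewer cells of a type from less RNA per cell.

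Read counts were normalized by library size (trimmed mean of M values, scaled to the mean library), and groups were compared with the quasi-likelihood test of edgeR across 14464 genes. A gene was called at a Benjamini-Hochberg adjusted p under 0.05. Fold changes are given on the log2 scale with their standard error (SE). The 3 comparisons against dark share the same 6 dark mice. Light mice differed from dark mice in 6 of the 10 receptors, where 31.8% of all genes tested were called, with 1 higher (Htr1f, 15.4% of all genes) and 5 lower (Htr1a, Htr1b, Htr2c, Htr4 and Htr7, 16.4% of all genes). Psilocybin-dark mice differed in 4 receptors, where 24.7% of all genes were called, with 1 higher (Htr1f, 11.9% of all genes) and 3 lower (Htr2c, Htr4 and Htr7, 12.8% of all genes). Psilocybin-light mice differed in 7, where 38.4% of all genes were called, with 2 higher (Htr1f and Htr5a, 17.4% of all genes) and 5 lower (the same 5 as with light, 21.0% of all genes). The median log2 fold change of the 10 receptors was −0.60, −0.36 and −0.65 in the 3 comparisons, beside −0.01, −0.02 and −0.02 over all genes tested. No receptor separated all 6 light mice or all 6 psilocybin-dark mice from all 6 dark mice, which 10.0% and 5.58% of all genes did.

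**Figure D1:**
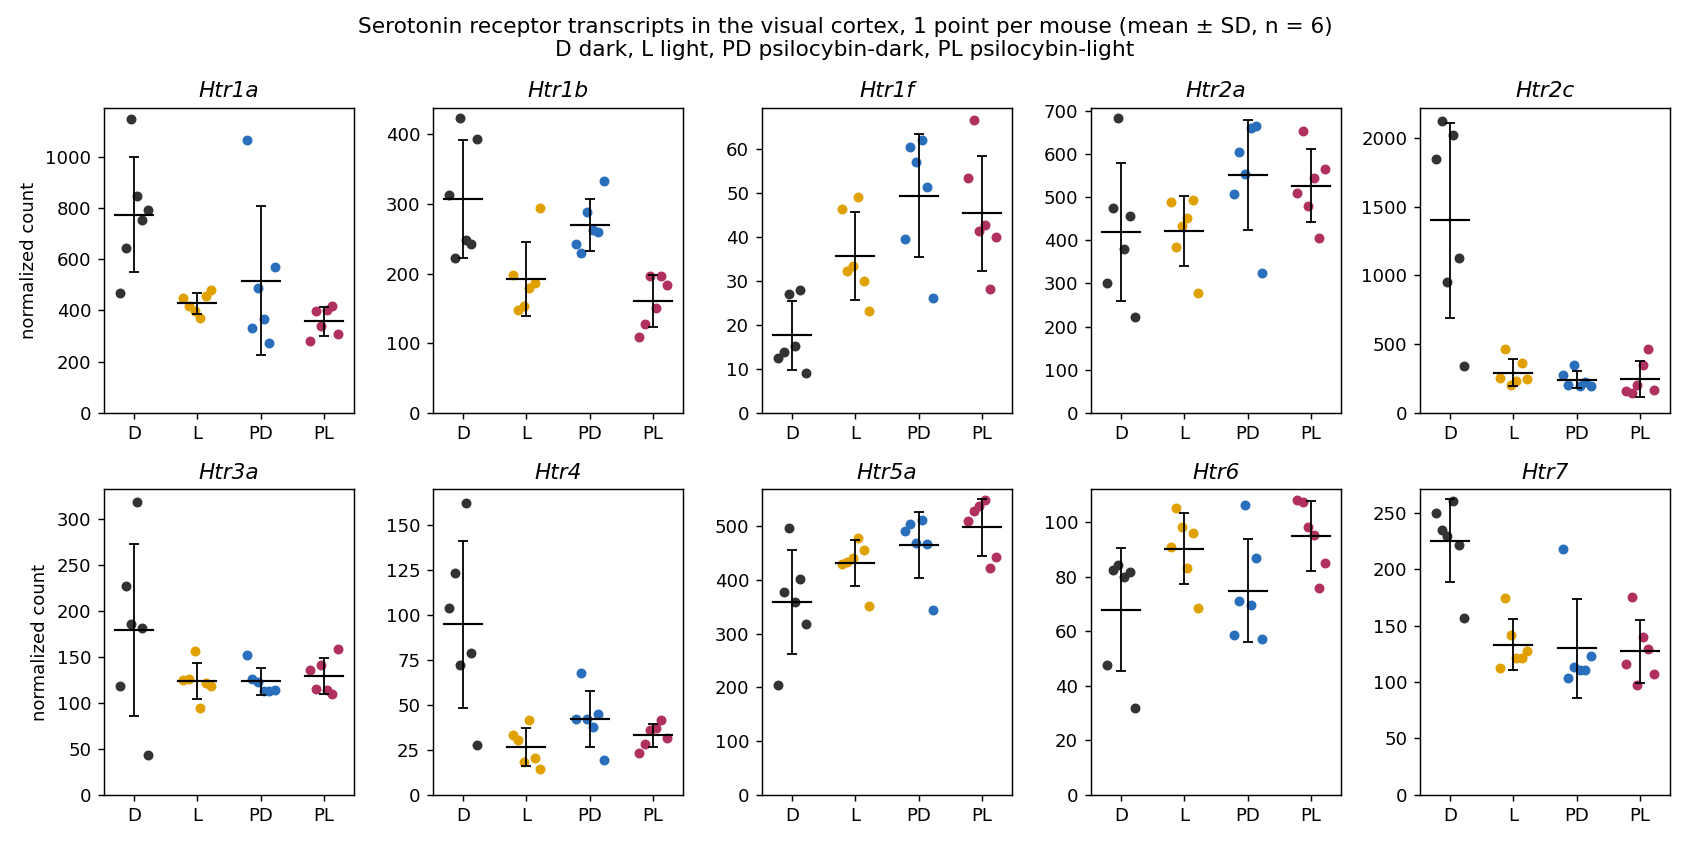
Normalized read counts (y axis) of each receptor in each mouse, grouped on the x axis as dark (D), light (L), psilocybin-dark (PD) and psilocybin-light (PL). Horizontal lines and bars show mean ± SD (n = 6). Htr2c spans 337.2 to 2123 in dark mice and 145 to 466.9 in all others.

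**Figure D2:**
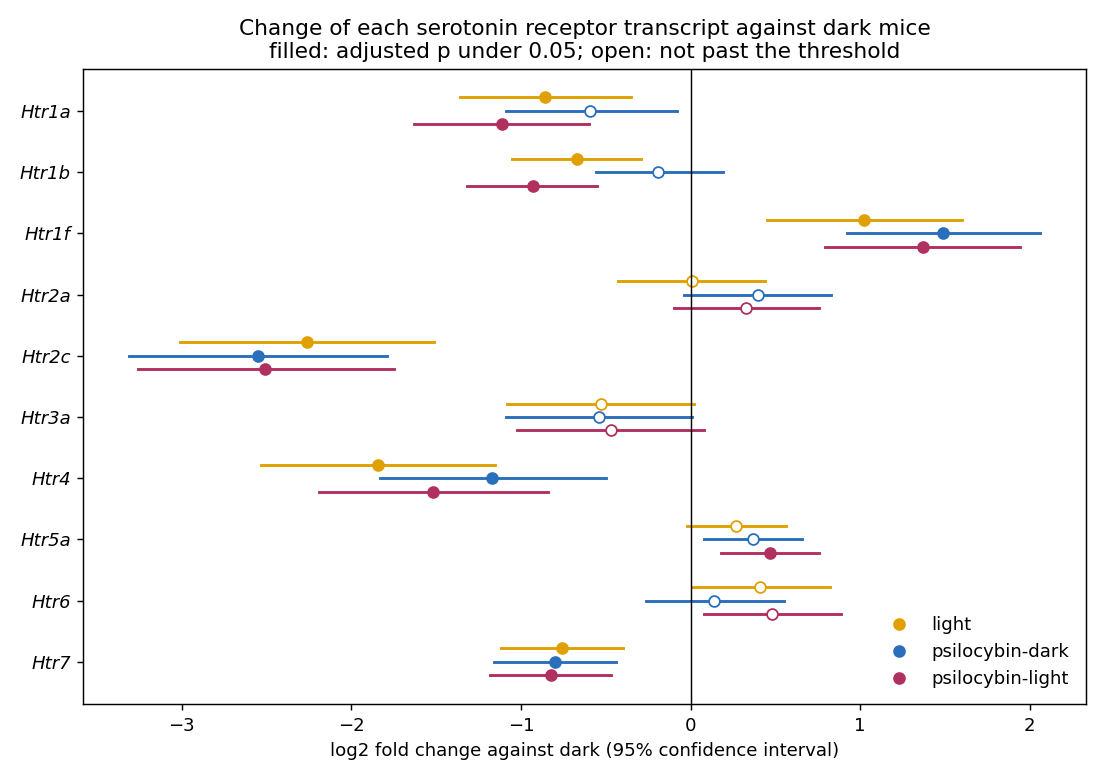
Log2 fold change against dark mice (x axis) of each receptor (y axis) in light, psilocybin-dark and psilocybin-light mice, with 95% confidence intervals and filled points for an adjusted p under 0.05 (edgeR). Htr2c lies between −2.55 and −2.26 in the 3 groups and Htr1f between 1.02 and 1.49.

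Among the Gq-coupled receptors, Htr2c fell and Htr2a was not called. Htr2c counts in dark mice had a lowest, median and highest value of 337.2, 1489 and 2123. In light mice they were 205.3, 248.3 and 460.9, in psilocybin-dark mice 193.2, 213.2 and 345.8, and in psilocybin-light mice 145, 182.4 and 466.9. Dark mice 1 to 5 were each above all 18 other mice, whereas dark mouse 6 fell within their range. Htr2c thus decreased from 1402 ± 709.9 (SD, n = 6) in dark mice to 292.8 ± 99.1 in light mice, 239.7 ± 60.8 in psilocybin-dark mice and 246.7 ± 130.6 in psilocybin-light mice. The log2 fold change was −2.26 (SE 0.36, adjusted p = 7.51e-05 by edgeR) with light, −2.55 (SE 0.37, adjusted p = 4.79e-05) with psilocybin in the dark and −2.51 (SE 0.37, adjusted p = 1.89e-05) with both. Without dark mice 1 and 6, which held the most cerebellum marker reads, these values were −2.40, −2.69 and −2.65. The opposite-strand long noncoding gene Gm61665 shares 215 bases of exon with Htr2c, and the strand setting of the authors' counting is not given in the sources used here, so reads of the 2 genes cannot be told apart there.

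The Htr2c level moved with the hippocampus markers. Dark mouse 6, the lowest of its group for Htr2c, also had the lowest hippocampus sum (235 CPM) and the lowest Fibcd1 level (20 CPM) of the dark mice. The correlation of log2 Htr2c with the mean log2 level of the hippocampus list, given as a description, was Pearson's r = 0.78 within the 6 dark mice and 0.56 over the 18 other mice. For Htr1a, Htr1b, Htr1f and Htr5a this r was −0.32, −0.19, 0.23 and −0.35 within the dark mice. Over the 18 other mice it was 0.55, 0.45, −0.67 and −0.62. The highest Htr2c values outside the dark group were in light mouse 14 and psilocybin-light mouse 23, the libraries with the most choroid plexus and thalamus marker reads. Psilocybin-light mouse 19, next for choroid plexus markers at 57.8 CPM, had a low Htr2c count of 158.3. With the hippocampus mean as a covariate, no receptor was called in any comparison against dark, and the Htr2c log2 fold change was −0.54, −0.81 and −0.62 (adjusted p by edgeR of 0.599, 0.659 and 0.555). Because the covariate itself differs between dark and the other groups, that fit also takes up differences between groups, and the part of these marker reads in the receptor results was not tested further.

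**Figure D3:**
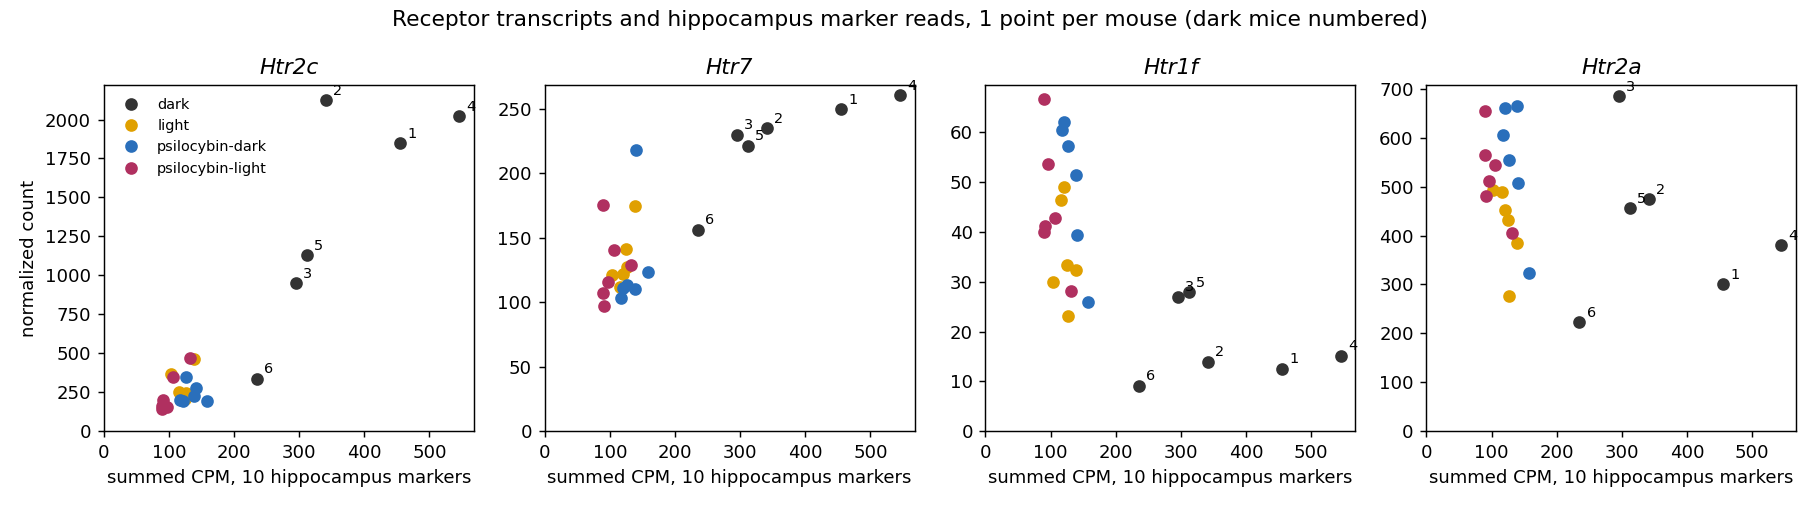
Normalized counts (y axis) of 4 receptors against the summed CPM of 10 hippocampus markers (x axis), 1 point per mouse, dark mice numbered. Every dark mouse lies at 235 CPM or above and every other mouse at 158 CPM or below.

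Htr2a, the receptor most tied to the psychedelic action of psilocin, showed no called difference. Its counts in dark mice had a lowest, median and highest value of 223, 418.1 and 684.9, in light mice 277.4, 442.3 and 492.7, in psilocybin-dark mice 323.3, 579.8 and 664.6, and in psilocybin-light mice 405.7, 527.5 and 654.3. The 4 ranges overlapped, and dark mouse 3 was above and dark mouse 6 below every other mouse. The log2 fold change against dark was 0.01 (95% confidence interval −0.43 to 0.44, adjusted p = 0.983 by edgeR) with light, 0.40 (SE 0.21, adjusted p = 0.175) with psilocybin in the dark and 0.33 (SE 0.21, adjusted p = 0.224) with both. Without dark mouse 3, Htr2a was higher in the psilocybin-dark and psilocybin-light groups, by 0.59 (adjusted p = 0.0318) and 0.52 (adjusted p = 0.0398). Without light mouse 18 and psilocybin-dark mouse 12 the psilocybin-dark value was 0.52 (adjusted p = 0.0443). In each of these 2 comparisons Htr2a was called in 1 of the 24 fits with 1 mouse left out. Without dark mice 1 and 6 it was called in neither. Over the 12 alternatives other than 1 mouse left out and the sample labels, the psilocybin-dark value was 0.08 to 0.52. The psilocybin-light value was −0.1 to 0.43 over these 12 and was called in 0 of them.

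The balance of Htr2a to other receptors was read within each library, where it does not depend on the scaling of the library. The ratio of Htr2a to Htr2c read counts had a lowest, median and highest value of 0.163, 0.314 and 0.722 in dark mice, 0.836, 1.64 and 2.1 in light mice, 1.6, 2.39 and 3.37 in psilocybin-dark mice, and 0.869, 2.8 and 4.5 in psilocybin-light mice. All 6 dark mice were below all 18 others. The ratio was 4.45-fold higher than dark in light mice, 6.93-fold in psilocybin-dark mice and 7.06-fold in psilocybin-light mice, each with p = 0.00216 in a two-sided exact permutation test, the smallest that 6 against 6 mice allows (adjusted p = 0.00649 over 12 comparisons). Psilocybin-light differed from light by 1.59-fold (adjusted p = 0.19, exact permutation test) and from psilocybin-dark by 1.02-fold (adjusted p = 0.944). The ratio of Htr2a to Htr1a had medians of 0.602, 1.09, 1.46 and 1.53 in dark, light, psilocybin-dark and psilocybin-light mice. It was higher than dark by 1.84-fold in light mice (adjusted p = 0.026, exact permutation test) and by 2.79-fold in psilocybin-light mice (adjusted p = 0.00649), and higher by 1.51-fold in psilocybin-light than in light mice (adjusted p = 0.0346). In psilocybin-dark mice it spanned 0.475 to 2.42 and was 2.2-fold that of dark (adjusted p = 0.0668). The Htr2c ratio carries the Htr2c difference above, with the same hippocampus marker reads beside it.

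**Figure D4:**
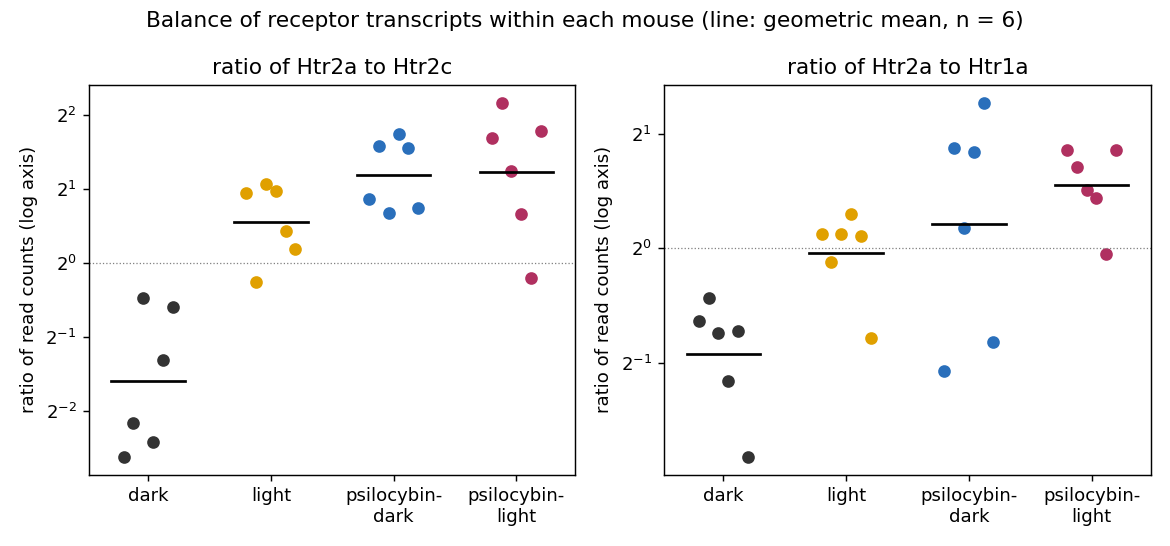
Ratio of Htr2a to Htr2c (left) and to Htr1a (right) read counts in each mouse, on a log axis, by group on the x axis, with the geometric mean as a line (n = 6). The Htr2a to Htr2c ratio is at most 0.722 in dark mice and at least 0.836 in all others.

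Of the Gi/o-coupled receptors, Htr1a and Htr1b fell with light, Htr1f rose in all 3 comparisons against dark, and Htr5a rose with psilocybin and light together. Htr1a, the somatodendritic autoreceptor of raphe neurons that is also an inhibitory receptor on cortical pyramidal cells, had a lowest, median and highest count of 468.8, 772.5 and 1148 in dark mice. The values were 368.9, 432.9 and 478.4 in light mice, 274, 428.6 and 1069 in psilocybin-dark mice and 281, 368 and 419.3 in psilocybin-light mice. Only psilocybin-light mice lay wholly below dark mice. The difference from dark on the log2 scale was −0.86 (SE 0.24, adjusted p = 0.00992 by edgeR) with light and −1.11 (SE 0.25, adjusted p = 0.00114) with psilocybin and light. With psilocybin in the dark it was −0.59 (SE 0.24, adjusted p = 0.0822). Mouse 7 of that group was within the dark range at 1069, and without it the value was −0.93 (adjusted p = 0.00134). It was also called without dark mouse 1 (−0.69, adjusted p = 0.0418) and without dark mice 1 and 6 (−0.71, adjusted p = 0.0424). Over the 12 alternatives other than 1 mouse left out and the sample labels, the light value was −1.02 to −0.64. The psilocybin-light value was −1.23 to −0.86 over these 12. Both were called in 11 of them, all but the fit with the hippocampus mean as a covariate.

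Htr1b, a presynaptic receptor that limits transmitter release, had counts of 222.6 to 422.8 in dark mice (median 280.5), 147.3 to 293.5 in light mice (median 182.5), 230 to 333.3 in psilocybin-dark mice (median 260.7) and 108.2 to 197 in psilocybin-light mice (median 167). All psilocybin-light mice were below all dark and all psilocybin-dark mice. Htr1b was lower than dark by a log2 fold change of −0.67 in light mice (SE 0.18, adjusted p = 0.00771 by edgeR) and −0.93 in psilocybin-light mice (SE 0.19, adjusted p = 0.000441). In psilocybin-dark mice it was −0.19 (SE 0.18, adjusted p = 0.494). Over the 12 alternatives other than 1 mouse left out and the sample labels, the light value was −0.83 to −0.41. The psilocybin-light value was −0.93 to −0.58 over these 12. Both were called in 11 of them, all but the fit with the hippocampus mean as a covariate. The highest light value, 293.5, belonged to mouse 18, and the highest psilocybin-dark value, 333.3, to mouse 12, both with cerebellum marker reads. The opposite-strand long noncoding gene D430036J16Rik shares 897 bases of exon with Htr1b, where its reads cannot be told apart without strand.

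Htr1f was the lowest receptor per length in the dark and was the receptor that rose in every comparison against dark. Its counts were 9.14 to 27.9 in dark mice (median 14.6, from 10 to 30 raw reads), 23.1 to 49.0 in light mice (median 32.9), 26.0 to 62.1 in psilocybin-dark mice (median 54.3) and 28.2 to 66.6 in psilocybin-light mice (median 42.0). Dark mice 1, 2, 4 and 6 were below all 18 other mice, and psilocybin-light mice did not overlap dark mice. On the log2 scale the difference from dark was 1.02 (SE 0.28, adjusted p = 0.00722 by edgeR) with light, 1.49 (SE 0.28, adjusted p = 0.000464) with psilocybin in the dark and 1.37 (SE 0.28, adjusted p = 0.00049) with both. The lowest values outside dark were in light mouse 18 and psilocybin-dark mouse 12, each the library of its group with the most cerebellum marker reads. Without dark mice 1 and 6 the values were 0.77, 1.24 and 1.12, and the adjusted p by edgeR was 0.0366, 0.00189 and 0.00306. With the hippocampus mean as a covariate they were 0.38, 0.85 and 0.64, none called (adjusted p 0.738, 0.642 and 0.564), and with the cerebellum mean as a covariate the light difference was 0.62 and not called (adjusted p = 0.0639).

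Htr5a, expressed by cortical neurons, had counts of 204 to 497.3 in dark mice (median 367.3) and 421.2 to 548.7 in psilocybin-light mice (median 518.5). The ranges overlapped through dark mouse 3, and dark mice 1 and 6 were below all 18 others. Against dark, the log2 fold change was 0.47 (SE 0.14, adjusted p = 0.0106 by edgeR) with psilocybin and light, 0.37 (SE 0.14, adjusted p = 0.057) with psilocybin in the dark and 0.27 (SE 0.14, adjusted p = 0.155) with light. Without dark mice 1 and 6 the first of these was 0.30 (adjusted p = 0.0316). Without light mouse 18 and psilocybin-dark mouse 12, psilocybin-dark mice were also higher, by 0.45 (adjusted p = 0.0169). The psilocybin-light value was not called with the cerebellum mean as a covariate (0.20, adjusted p = 0.191) or with the hippocampus mean (0.06, adjusted p = 0.933).

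Of the Gs-coupled receptors, Htr4 and Htr7 fell in all 3 comparisons against dark and Htr6 was not called by edgeR. Htr4 counts had a lowest, median and highest value of 27.4, 91.4 and 162.4 in dark mice, 14.1, 25.6 and 41.6 in light mice, 19.0, 42.1 and 67.6 in psilocybin-dark mice, and 23.4, 33.6 and 41.7 in psilocybin-light mice. Dark mice 1 to 5 were above all 18 others and dark mouse 6 was within their range. The log2 fold change was −1.84 (SE 0.33, adjusted p = 0.000236 by edgeR) with light, −1.17 (SE 0.32, adjusted p = 0.0103) with psilocybin in the dark and −1.52 (SE 0.33, adjusted p = 0.000867) with both. When only dark and psilocybin-dark mice entered the fit, Htr4 was not called between them (adjusted p = 0.059).

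Htr7, whose product is also known from hippocampus and thalamus, had counts of 156.3, 232.2 and 260.2 (lowest, median, highest) in dark mice and 112.1, 124.6 and 174.3 in light mice. In psilocybin-dark mice they were 103.1, 112.1 and 217.7, and in psilocybin-light mice 97.2, 122.5 and 175.1. The same 5 dark mice were above all other mice and dark mouse 6 was not. The difference from dark on the log2 scale was −0.76 (SE 0.17, adjusted p = 0.00186 by edgeR), −0.80 (SE 0.17, adjusted p = 0.00183) and −0.82 (SE 0.17, adjusted p = 0.000695) with light, psilocybin and both. Both genes ordered the dark mice much as the hippocampus list did, with Pearson's r of 0.76 for Htr4 and 0.89 for Htr7 within the 6 dark mice, against −0.27 and 0.28 over the 18 other mice, as a description. Without dark mice 1 and 6 the log2 fold changes of Htr4 were −2.04, −1.37 and −1.72 and those of Htr7 were −0.82, −0.86 and −0.89, all called. With the hippocampus mean as a covariate, neither was called against dark, and the Htr7 values were −0.25, −0.30 and −0.25.

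Htr6 counts were 32.0 to 84.1 in dark mice, 68.3 to 105.1 in light mice, 57.1 to 106.4 in psilocybin-dark mice and 75.7 to 108.2 in psilocybin-light mice. Dark mice 1 and 6 were below all 18 others and the other 4 dark mice were within 79.8 to 84.1. On the log2 scale the difference from dark was 0.41 (SE 0.20, adjusted p = 0.112 by edgeR), 0.14 (adjusted p = 0.64) and 0.48 (SE 0.20, adjusted p = 0.0548) with light, psilocybin and both. DESeq2 called the last of these (0.49, adjusted p = 0.0383), as did edgeR with upper-quartile scaling (0.51, adjusted p = 0.0419), without light mouse 18 and psilocybin-dark mouse 12 (0.49, adjusted p = 0.0439), and in 7 of the 24 fits with 1 mouse left out. Without dark mice 1 and 6 the 3 values were 0.15, −0.12 and 0.22, none called.

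Htr3a, the channel subunit that marks a class of cortical interneurons, was more variable in dark mice than elsewhere, at 42.95 to 318.1 (178.9 ± 93.8, SD, n = 6) against 93.8 to 158.3 over the 18 other mice. Dark mice 2 to 5 were above all 18 others and dark mouse 6 was below all of them. Against dark, the log2 fold change was −0.53 (SE 0.26, adjusted p = 0.133 by edgeR) with light, −0.54 (adjusted p = 0.147) with psilocybin and −0.47 (adjusted p = 0.168) with both, none called. Without dark mice 1 and 6, Htr3a was lower in all 3 comparisons, at −0.87 (adjusted p = 8.41e-05), −0.89 (adjusted p = 0.000108) and −0.81 (adjusted p = 0.000148). Without dark mouse 4, the highest, it was −0.29, −0.29 and −0.22, and with the hippocampus mean as a covariate it was 0.13, 0.12 and 0.30, none of these called. The summed level of the 8 markers of GABAergic neurons was 984 to 1490 CPM in dark mice and 1130 to 1370 CPM in the other groups. Single markers moved both ways, with 2 of the 8 higher and 2 lower in each comparison against dark. Of all genes tested, 15.4%, 11.9% and 17.4% were higher with light, psilocybin and both, and 16.4%, 12.8% and 21.0% were lower. With light, Vip (1.11, adjusted p = 0.00235 by edgeR) and Lamp5 (1.87, adjusted p = 8.36e-06) were higher. Gad2 (−0.29, adjusted p = 0.000415) and Adarb2 (−0.3, adjusted p = 0.0211) were lower.

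Levels were compared between receptors per length of merged exons (RPKM, reads per kilobase and library size). In dark mice the order of mean RPKM was Htr1a at 10.8 ± 3.14 (SD, n = 6), Htr2c at 9.34 ± 4.73, Htr3a at 4.66, Htr1b at 4.03, Htr2a at 3.95, Htr7 at 3.52, Htr5a at 2.54, Htr6 at 1.38, Htr4 at 0.643 and Htr1f at 0.197. No 2 neighbours in that order were separated beyond the range of their mice. In light mice Htr1a led at 5.94 ± 0.562 and was separated from Htr2a, the next at 3.97 ± 0.761, while Htr2c stood seventh at 1.95 ± 0.661. Htr2a was also next to Htr1a in both psilocybin groups, and in psilocybin-light mice the pair stood at 4.96 and 4.97 RPKM with overlapping ranges. Htr1f and Htr4 held the last places in every group.

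Summed over the 10 receptors, the level was 41 ± 8.67 RPKM (27.3 to 49.9) in dark mice, 25.2 ± 1.22 in light mice, 28.4 ± 4.66 in psilocybin-dark mice and 25.2 ± 1.43 in psilocybin-light mice. The sum of the Gq-coupled pair was 13.3 ± 5.07 RPKM in dark mice and 5.92, 6.8 and 6.6 in light, psilocybin-dark and psilocybin-light mice. The Gi/o sum was 17.5 ± 4.44 RPKM in dark mice and 11.9, 14.5 and 11.1 in the same 3 groups. The Gs sum was 5.54 RPKM in dark mice and 4.09, 3.84 and 4.14 in them. Htr2c made up 22.2% ± 10.4 of the summed receptor level in dark mice and 7.7%, 5.63% and 6.49% in light, psilocybin-dark and psilocybin-light mice. Htr2a made up 9.47% ± 2.36 in dark mice and 15.8%, 18.7% and 19.7%, while its own level was not called as different. Shares move with every member of the sum and are given as a description.

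**Figure D5:**
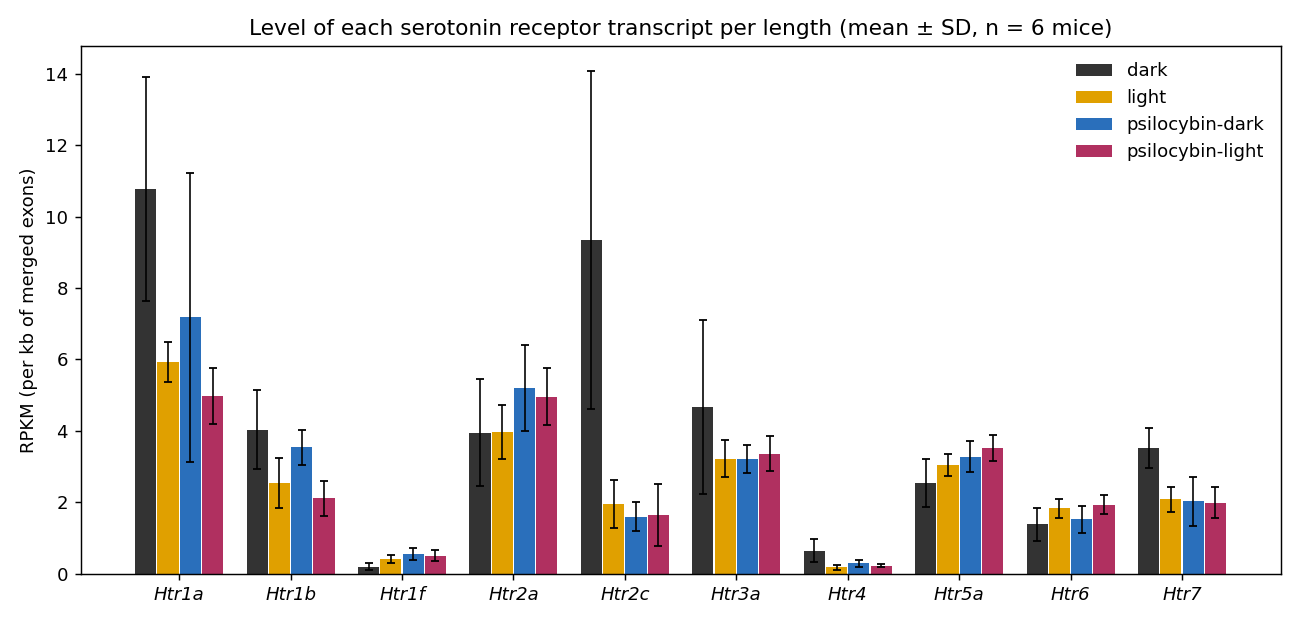
Mean level of each receptor (x axis) in RPKM (y axis, per kilobase of merged exons) in the 4 groups, with SD bars (n = 6 mice). In dark mice Htr1a and Htr2c stand at 10.8 and 9.34, and in light mice at 5.94 and 1.95.

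Few receptors were called among the 3 groups other than dark. Between psilocybin-light and light mice, 0 of the 10 receptors were called by edgeR or DESeq2. Of all genes, 0.581% were called by edgeR and 1.32% by DESeq2. In edgeR 0 receptors had an unadjusted p under 0.05, which 9.66% of all genes had. For Htr2a the log2 difference was 0.32 with a 95% confidence interval of −0.11 to 0.76, and for Htr2c it was −0.25 with an interval of −0.99 to 0.50. Between psilocybin-dark and light mice, 0 receptors were called by edgeR or DESeq2, where 0.463% of all genes were called by edgeR and 2.8% by DESeq2. In edgeR 1 receptor, Htr1b, had an unadjusted p under 0.05, which 14.3% of all genes had. Between psilocybin-light and psilocybin-dark mice 1 receptor was called, where 6.40% of all genes were. This was Htr1b, at 160.4 ± 37.8 against 269.3 ± 37.1 normalized counts (SD, n = 6). The difference was −0.75 on the log2 scale (SE 0.19, adjusted p = 0.0176 by edgeR). The 6 psilocybin-light mice were all below the 6 psilocybin-dark mice for Htr1b, and 6.42% of all genes separated the 2 groups in this way or in reverse. The call was lost without psilocybin-light mouse 19 (−0.65, adjusted p = 0.0503) and held with the hippocampus mean as a covariate (−0.73, adjusted p = 0.0222). In psilocybin-light mice, 3 receptors did not overlap dark mice (Htr1a, Htr1b and Htr1f), where 15.8% of all genes did not.

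The interaction compares the light-minus-dark difference of mice given psilocybin with that of mice without the drug. It was called for 2 receptors, where 8.70% of all genes were called, and 4 had an unadjusted p under 0.05, as did 24.8% of all genes. For Htr2c, the light-minus-dark log2 value was −2.26 without the drug and 0.04 with it (SE 0.36, adjusted p = 0.969 by edgeR). The interaction was a difference of 2.30 (SE 0.51, adjusted p = 0.00865). For Htr4, this value was −1.84 without the drug and −0.35 with it, a difference of 1.49 (SE 0.47, adjusted p = 0.0495). For Htr1f and Htr7 the differences were −1.15 (adjusted p = 0.0604) and 0.73 (adjusted p = 0.0636). In each of these 4 genes the dark mean was the highest or the lowest of the groups, so the interaction rests on the same 6 dark mice as the comparisons above. The Htr2c interaction was called with any 1 mouse left out, and that of Htr4 in 6 of the 24 such fits, with an adjusted p of up to 0.0955. With the hippocampus mean as a covariate, neither was called. Over the alternatives other than 1 mouse left out and the sample labels, the Htr2c difference was as low as 0.72. Its adjusted p there was up to 0.703 (edgeR or DESeq2).

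Among the other family genes, Htr1d and Htr5b passed the filter. Htr1d, a relative of Htr1b, passed only through dark mouse 1, at 47 raw reads, and its group means were 17.2 normalized counts in dark mice and 3.13 to 6.28 elsewhere. Since that excess in the dark put the gene into the test, no call is drawn from it. Dark mouse 1 was the highest of its group, and its cortical excitatory marker sum, 815 CPM, was the lowest of all mice. Htr5b was at 58.6 ± 26.0 normalized counts in dark mice, 40.8 ± 8.64 in light, 66.9 ± 11.3 in psilocybin-dark and 44.6 ± 11.6 in psilocybin-light mice and was not called. Htr2b and Htr3b stayed at 4 and 2 reads or fewer in every library.

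Of 8 genes of serotonin synthesis, transport and breakdown, 5 passed the filter, and in each comparison against dark 1 of them, Maoa, was lower. Of all genes tested, 16.4%, 12.8% and 21.0% were lower with light, psilocybin and both. Maoa, the monoamine oxidase that breaks serotonin down, fell by 0.55 (SE 0.13, adjusted p = 0.00324 by edgeR), 0.45 (adjusted p = 0.016) and 0.46 (adjusted p = 0.00953) on the log2 scale with light, psilocybin and both. Tph2, the neuronal tryptophan hydroxylase that makes serotonin in raphe neurons, was low throughout, at 0.398 to 1.11 CPM in dark mice (7 to 20 reads), 1.69 to 3.81 in light, 1.12 to 2.73 in psilocybin-dark and 2.59 to 3.55 in psilocybin-light mice. Every dark mouse was below the other 18, and since the gene passed the filter only through the other groups, no call is drawn from it. The serotonin transporter Slc6a4 and the raphe factor Fev were at 8 and 6 reads or fewer in every library. Slc18a2 and Ddc, shared by all monoamine neurons, were high in dark mouse 1, at 42.3 and 19.8 CPM against at most 6.77 and 6.41 outside the dark group, and were not called.

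Of 9 proteins known to bind serotonin receptors, 2 were higher and 2 lower in light than in dark mice, where 31.8% of all genes were called. Arrb1, a beta-arrestin that desensitizes receptors, rose by 0.24 (adjusted p = 0.000937 by edgeR) and the scaffold Gipc1 by 0.34 (adjusted p = 0.00204). Mpdz, a PDZ scaffold that binds the Htr2c product, fell by 0.37 (adjusted p = 0.00479), and Ric3, a chaperone of Htr3a channels, fell by 0.16 (adjusted p = 0.00789). With psilocybin in the dark Arrb1 and Gipc1 were again higher, by 0.23 (adjusted p = 0.00235) and 0.34 (adjusted p = 0.00265), and none was lower. Psilocybin-light mice had 2 higher and 1 lower. Of all genes tested, 24.7% were called with psilocybin in the dark and 38.4% with both.

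Of 22 G protein subunits and effectors, 4 were higher and 4 lower in light than in dark mice, where 31.8% of all genes were called. Their median log2 fold change was −0.01. Rgs4, which speeds the turning off of Gi/o and Gq, rose by 1.30 (adjusted p = 0.000219 by edgeR), the potassium channel subunit Kcnj9 by 0.49 (adjusted p = 0.000672) and the phospholipase Plcb1 by 0.44 (adjusted p = 0.0138). The adenylyl cyclase Adcy5 fell by 0.51 (adjusted p = 0.00643), and Gnal and Gnai1 by 0.32 (adjusted p = 2.86e-05) and 0.21 (adjusted p = 0.00896). Adcy5 and Gnal are also known for high expression in striatum. The 6 striatum markers summed to 71.7 to 129 CPM in dark mice and 43.1 to 65.6 elsewhere. Of these markers, 1 was lower in light than in dark mice (Penk, −1.57, adjusted p = 1.89e-05 by edgeR) and 1 higher (Adora2a, 0.59, adjusted p = 0.02). With psilocybin in the dark 2 were lower, with both 1 was, and none was higher. Of all genes tested, 16.4%, 12.8% and 21.0% were lower with light, psilocybin and both, and 15.4%, 11.9% and 17.4% were higher. The part of striatum marker reads in the Adcy5 and Gnal values was not tested. Of the 22 G protein subunits and effectors, 5 were higher and 3 lower with psilocybin in the dark, where 24.7% of all genes were called. The higher ones were led by Rgs4 at 1.36 (adjusted p = 0.000224 by edgeR), Plcb1 at 0.58 (adjusted p = 0.0028) and Adcy2 at 0.46 (adjusted p = 0.000802). The lower ones were Adcy5 at −0.40 (adjusted p = 0.0366), Gnas at −0.22 (adjusted p = 0.00396) and Gnal at −0.20 (adjusted p = 0.00296). With both, 5 were higher and 3 lower, where 38.4% of all genes were called.

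The genes whose levels followed each called receptor most closely were read from Pearson's r of log2 CPM over the 24 libraries, as a description. For Htr2c they were Fibcd1, AW551984 and Magel2 (0.95 each), where r over the 18 mice other than dark was 0.64, 0.75 and 0.83. Fibcd1 is a hippocampus marker of the list above and also followed Htr7 (0.88), after Tacr3 (0.89) and Glra3 (0.88). Htr1f was closest to Pi4ka (0.95), Sntg1 (0.94) and Mark1 (0.94), with r of 0.88, 0.81 and 0.84 over the 18. Htr1a was closest to Dsc3 (0.94 over 24 and 0.88 over 18), Htr1b to Grk5 (0.85 and 0.81), a kinase of G protein-coupled receptors, Htr4 to Gm5124 (0.92 and 0.82) and Htr5a to the synaptotagmin Syt1 (0.94 and 0.84). All of these r values share libraries, depth and the tissue makeup of each library.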

How the data were processed

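The deposited table held raw read counts per gene that the authors made from polyA libraries (NEBNext Ultra II RNA kit) by trimming with cutadapt, mapping with STAR to GRCm39 and counting with htseq-count on Ensembl annotation. The submitters' processing notes name mm10 instead. The strand setting and versions are not given in the sources used here. Gene symbols, positions and exon lengths came from GENCODE vM39, and promoter bases from RefSeq (GRCm38.p6).

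Of 55414 genes, 31758 had at least 1 count and 14464 reached 30 counts in 1 or more libraries. These were normalized by trimmed mean of M values and fitted in edgeR 4.0.16 (R 4.3.3) with 1 coefficient per group over all 24 libraries (robust quasi-likelihood F test, two-sided, Benjamini-Hochberg over all genes tested). The common biological coefficient of variation was 0.182. The script was tested on simulated data. Receptor ratios used counts plus 0.5 and a two-sided exact permutation test over mice, adjusted over 12 comparisons. Log2 CPM used a prior count of 2. Depth was 13552516 to 17906994 counts per library, so a receptor at 10 to 30 reads, as Htr1f in dark mice, carries more counting error than the others.

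Alternatives were DESeq2 1.42.0 with the study's parameters, 2 other scalings, 2 other filters, only the compared groups, the light exposure of the sample labels, libraries with reads of other brain regions left out, the mean log2 CPM of the hippocampus list as a covariate, and each mouse left out. The cerebellum covariate and the fit without light mouse 14 and psilocybin-light mice 19 and 23 were chosen after seeing the data. The receptors and gene lists were chosen with earlier results of these data known. Named genes were all receptors, the called genes of the synthesis list, the 3 called genes with the largest change in each direction of the binding and G protein lists (light and psilocybin-dark against dark), and for called receptors the 3 most correlated genes. Each library is from a separate mouse, as the study's methods describe.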

Additional observations from a re-analysis of the deposited data

Results flagged for a closer look

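In 40 sets of 6 mice (10 receptors in 4 groups), 5 held 1 mouse far from the others of its group by Dixon's test, which flags about 1 in 20 sets by chance. Psilocybin-dark mouse 7 had 1069 normalized counts of Htr1a (the next was 571.5), 217.7 of Htr7 (next 123.1) and 151.9 of Htr3a (next 125.7). Psilocybin-dark mouse 12, whose library held cerebellum marker reads, had 344.3 of Htr5a, with the next at 466.6. Light mouse 18, also with cerebellum marker reads, had 293.5 of Htr1b, with the next at 197.9. The part of those marker reads in the values was not tested.

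The light-minus-dark difference was not the same with and without psilocybin for Htr2c, by 2.30 on the log2 scale, and for Htr4, by 1.49. The adjusted p in the interaction test of edgeR across all genes was 0.00865 and 0.0495. Neither was called with the hippocampus mean as a covariate, and the part of those marker reads was not tested.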

How the results depend on the processing

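The 20 receptor results called in the 7 comparisons kept their direction under every alternative other than the sample labels' light exposure. Over the other alternatives, 212 values stayed past the threshold and 26 did not, and with 1 mouse left out 461 stayed and 19 did not. With the hippocampus mean as a covariate, 0 receptors were called with light, psilocybin or both against dark, where 3.69%, 0% and 4.25% of all genes were, and 0 in the interaction, where 0% were. The cause was not tested.

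The interaction was called for 2 receptors and 8.70% of all genes. It was called for 4 receptors by DESeq2 (11.5% of all genes), 4 without dark mice 1 and 6 (21.3%), 5 without these, light mouse 18 and psilocybin-dark mouse 12 (26.8%), 1 with no filter (2.19%), and 1 without light mouse 14 and psilocybin-light mice 19 and 23 (2.72%). With 1 mouse left out it ranged from 1 to 4, the latter without dark mouse 6 (14.5% of all genes). Psilocybin-dark against dark had 7 without dark mice 1 and 6, light mouse 18 and psilocybin-dark mouse 12, where 38.2% of all genes were called. Psilocybin-light against psilocybin-dark had 0 without light mouse 14 and psilocybin-light mice 19 and 23 (2.16% of all genes), and 0 to 1 with 1 mouse left out (0 without psilocybin-light mouse 19). The number of comparisons passed by each ratio stayed within 1.5 times its value of 3.

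With the light exposure of the sample labels, which renames the same 4 sets of libraries, psilocybin-dark against dark had 0 called receptors, psilocybin-light against dark 0, psilocybin-light against light 4 and psilocybin-dark against light 7. Light against dark then gave 0.86 for Htr1a, 0.67 for Htr1b, −1.02 for Htr1f, 2.26 for Htr2c, 1.84 for Htr4 and 0.76 for Htr7. Psilocybin-dark against dark gave 0.32 for Htr4, and psilocybin-light against dark 0.27 for Htr1a, 0.48 for Htr1b and 0.67 for Htr4. Psilocybin-light against psilocybin-dark gave 0.75 for Htr1b, and the interaction −2.30 for Htr2c and −1.49 for Htr4.

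No paired analysis was possible because the libraries are numbered 1 to 24 and the groups share no replicate number. Htr1f, Htr4 and Htr6 rest on fewer than 200 reads per library, which limits how small a change can be seen.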
